A study of Mus musculus with 12 samples.

Results

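The genes described here are 10 parts of the T helper 1 (Th1) programme of CD4+ T cells. They are the IL-12 receptor chains Il12rb1 and Il12rb2, the signal transducer Stat4, the transcription factors Tbx21 (T-bet), Eomes and Hlx, the cytokine Ifng, the chemokine receptor Cxcr3 and the IL-18 receptor chains Il18r1 and Il18rap. They were chosen by gene symbol from the 35492 symbols of the deposited tables. All 10 were present and all 10 passed the filter used for testing, a group mean of 1 TPM or above (transcripts per 1000000) in 1 group or more.

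RNA was measured by sequencing in 12 libraries of mouse CD4+ T cells, 3 in each of 4 groups, from C57BL/6J mice 7 weeks of age. Tfh_TILS cells had the surface phenotype CD4+ CXCR5+ PD1+ of follicular helper T (Tfh) cells and were sorted out of MC38 tumours (MC38 is a colon carcinoma line of the mouse). Tfh_Vitro cells were naive wild-type T cells of spleen and lymph nodes, cultured with IL-6 and IL-21 (both at 50 ng/ml) plus blocking antibodies (10 µg/ml each) against IL-4, IFNγ and TGFβ. Tfh_OTII cells came from the same protocol started with T cells of OT-II mice, which carry a transgenic T cell receptor. Th1_Vitro cells were wild-type naive T cells given 10 ng/ml IL-12 with 10 µg/ml of antibody against IL-4. All cultures used plates coated with CD3 and CD28 antibodies. The Tfh cultures thus contained an IFNγ-blocking antibody and no added IL-12, and the Th1 culture the reverse. Titles give 24 h for Tfh_Vitro and Th1_Vitro and 48 h for Tfh_OTII, whereas the growth protocol has 48 h throughout, so genotype and stated time cannot be told apart between the 2 Tfh cultures. The labels do not state whether replicates are different mice or cultures; the p-values here reflect variation among the libraries alone, possibly of technical origin.

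IL-12 binds a receptor of a β1 chain, shared with the IL-23 receptor, and a β2 chain that is kept by cells committed to the Th1 fate. The receptor activates STAT4, which acts with T-bet at Ifng and other Th1 genes. T-bet is induced by T cell receptor and IFNγ signals, promotes expression of the IL-12 receptor β2 chain and CXCR3, and is opposed in Tfh cells by BCL6. IL-18 acts through its own receptor pair and adds to IFNγ production in cells that have seen IL-12.

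The libraries differed in ways that touch every level given below. A set of 12 satellite-like gene models took 33.7 to 62.3% of all TPM in Th1_Vitro and at most 19.0% in any other library, and because TPM add up to a fixed sum, other genes are lowered as deposited. The summed TPM of the Cd3 chains Cd3d, Cd3e, Cd3g and Cd247 was 162 to 337 in Th1_Vitro and 615 to 1117 elsewhere. Values were therefore scaled with median-of-ratios size factors (0.470 to 0.685 in Th1_Vitro, 1.10 to 1.41 elsewhere) for the main fit, and each Th1_Vitro comparison is also given as deposited. Scaling moved the median log2 fold change of all genes by 0.63, 0.67 and 0.71 in the comparisons of Th1_Vitro with Tfh_Vitro, Tfh_OTII and Tfh_TILS, and by less than 0.1 in the others. In comparisons with Th1_Vitro a gene is said to have risen or fallen only where it passed the test in the same direction with both. In bulk RNA, fewer expressing cells and less RNA per cell cannot be told apart.

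T cell markers were at 1 TPM or more in every library, and Cd4 ranged from 59.6 to 231 TPM. The summed TPM of 9 Tfh markers was 389 to 612 in Tfh_TILS, 293 to 340 in Tfh_Vitro, 212 to 225 in Tfh_OTII and 75.4 to 130 in Th1_Vitro. Bcl6, the transcription factor that defines Tfh cells, had 14.5 ± 3.97 TPM (SD, n = 3) in Tfh_TILS, 6.09 ± 0.572 in Tfh_Vitro, 4.40 ± 0.140 in Tfh_OTII and 1.71 ± 0.139 in Th1_Vitro. After scaling, the sums were 302 to 433, 263 to 286, 162 to 192 and 142 to 276 in the same order, so that Th1_Vitro overlapped both Tfh cultures.

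The sequences upstream of 4 of the genes are shown. They are the 3 genes with a match to a STAT motif (the IL-12 receptor β2 chain, IFNγ and the IL-18 receptor chain Il18r1) and T-bet, which had none. Each is the 250 bases before an annotated start in RefSeq, build GRCm38.p6, read 5′ to 3′ on the gene's strand, with matches to the STAT motif TTCNNNGAA in capitals. Il12rb2 lies at chr6:67376189-67376438 (minus strand), Ifng at chr10:118440796-118441045 (plus), Il18r1 at chr1:40465756-40466005 (plus, 1 of its 3 annotated windows) and Tbx21 at chr11:97115332-97115581 (minus).
Il12rb2: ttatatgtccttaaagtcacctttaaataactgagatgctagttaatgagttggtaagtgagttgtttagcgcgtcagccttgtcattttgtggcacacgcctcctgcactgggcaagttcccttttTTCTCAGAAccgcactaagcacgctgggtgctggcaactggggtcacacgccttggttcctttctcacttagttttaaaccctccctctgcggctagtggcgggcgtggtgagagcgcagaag
Ifng: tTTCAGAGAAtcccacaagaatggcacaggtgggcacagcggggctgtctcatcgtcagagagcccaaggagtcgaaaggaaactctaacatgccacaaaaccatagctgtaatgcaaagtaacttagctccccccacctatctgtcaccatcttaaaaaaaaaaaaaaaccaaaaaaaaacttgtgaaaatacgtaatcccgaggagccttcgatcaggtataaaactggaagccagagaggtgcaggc
Il18r1: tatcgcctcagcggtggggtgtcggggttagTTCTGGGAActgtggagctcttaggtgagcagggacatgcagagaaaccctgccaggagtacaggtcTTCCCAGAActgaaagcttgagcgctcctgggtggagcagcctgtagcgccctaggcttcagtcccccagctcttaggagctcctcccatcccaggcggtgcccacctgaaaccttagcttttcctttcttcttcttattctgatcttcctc
Tbx21: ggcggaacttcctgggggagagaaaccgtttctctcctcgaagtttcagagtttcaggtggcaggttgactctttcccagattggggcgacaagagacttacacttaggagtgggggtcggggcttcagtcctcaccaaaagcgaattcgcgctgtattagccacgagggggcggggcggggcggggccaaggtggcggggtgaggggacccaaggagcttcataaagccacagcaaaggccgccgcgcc

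RefSeq windows were found for 9 of the 10 genes; Il12rb1 had none in the table used. The motif TTCNNNGAA, which reads the same on both strands, was present in 3 of those 9 genes, in a window each of Ifng and Il12rb2 and as 2 matches in the Il18r1 window shown. That window lies after 40465552, the first annotated base of Il18r1. The other Il18r1 windows, chr1:40465302-40465551 and chr1:40465371-40465620, held no match. The STAT motif occurred in 8.13% of all 27025 genes with such windows. The T-box half-site GGTGTGA, searched on both strands, was in none of the 9 genes and in 3.84% of all genes. A match is a description of the letters and not evidence of binding.

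Of the 2 chains of the IL-12 receptor, Il12rb2 was not highest in the cells given IL-12. Il12rb2 (chr6, 67291318 to 67376188, minus strand, GRCm38), the chain restricted to IL-12-responsive cells, had 6.13, 13.02 and 16.8 TPM in the 3 Th1_Vitro libraries and 47.3, 41.0 and 38.5 TPM in Tfh_Vitro. Tfh_OTII had 41.4, 44.1 and 42.6 TPM, and Tfh_TILS 9.96, 34.9 and 9.75 TPM. Both Tfh cultures were above every Th1_Vitro and every Tfh_TILS library, and replicate 2 of Tfh_TILS stood apart from the other 2. Against Tfh_Vitro, Th1_Vitro was lower on the log2(TPM + 1) scale by values of -0.83 ± 0.39 (SE) scaled, with an adjusted p of 0.176 from limma, and -1.83 ± 0.43 as deposited, with an adjusted p of 0.00478 by the same test. The difference is thus called as deposited and not after scaling, although the groups did not overlap either way. Il12rb2 fell in Tfh_TILS against Tfh_OTII, at -1.48 ± 0.39 scaled (limma adjusted p = 0.0232). It was called as deposited too, but after leaving out 1 library in turn it kept its call in 2 of 6 cases scaled and in 1 of 6 as deposited. Without Tfh_TILS replicate 2 the difference was -1.98 ± 0.32 (limma adjusted p = 0.00307), and that from Tfh_Vitro, -1.54 ± 0.39 with all libraries (adjusted p = 0.0637), became -2.03 ± 0.32 (adjusted p = 0.0105).

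Il12rb1 (chr8, 70808449 to 70821424, plus strand), the chain shared with the IL-23 receptor, had 24.6, 27.5 and 63.7 TPM in Th1_Vitro, 46.8, 46.1 and 40.1 in Tfh_Vitro, 55.3, 53.7 and 57.7 in Tfh_OTII and 29.2, 31.2 and 32.0 in Tfh_TILS. Tfh_TILS was below both Tfh cultures in every library, and Th1_Vitro replicate 3 lay above all others. Within a library, Il12rb1 stood at percentile 91.5 to 95.1 in Th1_Vitro, above the 86.8 to 89.6, 89.0 to 89.6 and 79.5 to 83.0 of Tfh_Vitro, Tfh_OTII and Tfh_TILS. Against Tfh_Vitro, Th1_Vitro differed by 0.71 ± 0.24 scaled (limma adjusted p = 0.0685), with no overlap of the scaled levels, and by -0.32 as deposited (adjusted p = 0.370, limma). Scaled, Il12rb1 was higher in Th1_Vitro than in Tfh_TILS by 1.36 ± 0.24 on the log2 scale (limma adjusted p = 0.00326), but as deposited the difference was 0.19 ± 0.29 (adjusted p = 0.597). Against Tfh_OTII, Tfh_TILS was lower by values of -0.89 ± 0.24 (adjusted p = 0.0263, limma) scaled and -0.83 ± 0.29 (adjusted p = 0.0749, limma) as deposited. Il12rb1 kept the scaled call in 2 of 6 cases, losing it without replicate 2 or 3 of either group.

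The ratio of the receptor chains was taken within each library from TPM as deposited + 1, without scaling between libraries. The log2 ratio of Il12rb2 to Il12rb1 was -1.58 ± 0.48 (SD, n = 3) in Th1_Vitro, -0.07 ± 0.09 in Tfh_Vitro, -0.37 ± 0.08 in Tfh_OTII and -0.97 ± 0.98 in Tfh_TILS. Every Th1_Vitro library (-1.87 to -1.02) was below every library of both Tfh cultures (-0.43 to 0.02). The exact permutation test over all arrangements of the 12 libraries gave p = 0.0657 (adjusted over the 5 ratios, 0.0657), one-sided in the between-group to within-group variance ratio. Without Tfh_TILS replicate 2, in which the ratio was 0.16 against -1.46 and -1.62 in the other 2, the adjusted exact p was 0.00433. That was the lowest value on leaving out 1 library, and the highest adjusted exact p was 0.128. With 3 libraries against 3, no exact test of a pair of groups can give a p below 0.1.

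Stat4 (chr1, 51987148 to 52107189, plus strand), the transducer of the IL-12 signal, was abundant in all groups. It had 15.1, 31.6 and 27.1 TPM in Th1_Vitro, 45.8, 40.3 and 41.7 in Tfh_Vitro, 66.9, 69.5 and 70.7 in Tfh_OTII and 48.8, 59.1 and 47.1 in Tfh_TILS. As deposited every Th1_Vitro library was the lowest, and the test called that in all 3 comparisons (-0.83, -1.51 and -1.10 on the log2 scale against Tfh_Vitro, Tfh_OTII and Tfh_TILS). After scaling the same differences were 0.20, -0.41 and 0.07 and none passed. Ranked among protein-coding genes within a library, which needs no scaling, Stat4 stood at percentiles 84.8 to 93.8 in Th1_Vitro and 87.3 to 91.7 in the other libraries. The call as deposited against Tfh_Vitro was kept in 3 of 6 fits without 1 library, and was lost without Tfh_Vitro replicate 1 or 3 or Th1_Vitro replicate 1.

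Tbx21 (chr11, 97098071 to 97115331, minus strand), which encodes T-bet, was lowest in Tfh_OTII. Its TPM were 9.85, 11.5 and 25.7 in Th1_Vitro, 12.4, 7.50 and 12.99 in Tfh_Vitro, 3.82, 4.67 and 5.39 in Tfh_OTII and 14.6, 25.9 and 19.0 in Tfh_TILS. Every Tfh_OTII library was below every library of the other groups. After scaling the order of group means was Th1_Vitro (26.8 ± 9.70), Tfh_TILS (15.3 ± 2.82), Tfh_Vitro (9.41 ± 2.34) and Tfh_OTII (3.86 ± 1.07), without overlap between neighbours. Between neighbours in that order, none of the 3 scaled steps passed the test, with limma adjusted p of 0.0969 for Th1_Vitro against Tfh_TILS, 0.327 for Tfh_TILS against Tfh_Vitro and 0.0828 for Tfh_OTII against Tfh_Vitro. As deposited, Tfh_TILS (19.8 ± 5.71) came before Th1_Vitro (15.7 ± 8.70), with overlap.

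Tbx21 rose in Th1_Vitro against Tfh_OTII, by 2.48 ± 0.29 on the log2 scale after scaling (limma adjusted p = 9.32e-05), a 5.59-fold difference, and by 1.46 ± 0.35 as deposited (adjusted p = 0.00448). It also rose in Tfh_TILS against Tfh_OTII, by 1.75 ± 0.29 (adjusted p = 0.00181, limma). Both differences kept their call without any 1 library, scaled and as deposited. Against Tfh_Vitro the scaled difference of Th1_Vitro was 1.39 ± 0.29 (limma adjusted p = 0.00745), called in all 6 fits without 1 library, whereas as deposited it was 0.39 ± 0.35 (adjusted p = 0.357). Within libraries, Tbx21 stood at percentiles 77.5 to 85.9 of protein-coding genes in Th1_Vitro, 70.9 to 76.5 in Tfh_TILS, 60.9 to 68.5 in Tfh_Vitro and 46.6 to 58.5 in Tfh_OTII. These 4 ranges did not overlap.

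The balance of T-bet to BCL6 was tested as a ratio within each library. The log2 ratio of Tbx21 to Bcl6 was 2.502 ± 0.63 in Th1_Vitro, 0.72 ± 0.28 in Tfh_Vitro, 0.41 ± 0.03 in Tfh_TILS and 0.05 ± 0.24 in Tfh_OTII (SD, n = 3). The lowest Th1_Vitro library, at 2.03, was above the highest of the 9 others, at 0.91. The exact permutation test gave p = 0.000195, adjusted 0.000487, and adjusted exact p from 0.000325 to 0.00211 without any 1 library. The Tbx21 levels of Tfh_TILS and Th1_Vitro overlapped as deposited, while every Tfh_TILS library had more Bcl6 (10.99 to 18.8 TPM) than every Th1_Vitro library (1.60 to 1.87).

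Eomes (chr9, 118478212 to 118486132, plus strand), the T-box factor related to T-bet, was lowest in Th1_Vitro as deposited by group mean. It had 5.71, 3.59 and 3.58 TPM in Th1_Vitro, 11.9, 14.2 and 18.7 in Tfh_Vitro, 6.57, 9.91 and 5.25 in Tfh_OTII and 20.99, 12.2 and 12.5 in Tfh_TILS. Th1_Vitro was below both wild-type Tfh_Vitro and Tfh_TILS in every library as deposited, and the 2 higher groups overlapped each other. The differences were called as deposited (-1.59 ± 0.30 against Tfh_Vitro and -1.60 ± 0.30 against Tfh_TILS, limma adjusted p of 0.00129 and 0.00101) and not after scaling (-0.67 ± 0.32 and -0.55 ± 0.32). In Tfh_TILS against Tfh_OTII, Eomes was 0.89 ± 0.32 higher scaled (adjusted p = 0.0833, limma) and 0.97 ± 0.30 as deposited (adjusted p = 0.0440). That call as deposited was kept in 1 of the 6 fits that leave out a library.

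The log2 ratio of Tbx21 to Eomes was 1.56 ± 0.93 in Th1_Vitro, 0.36 ± 0.78 in Tfh_TILS, -0.43 ± 0.45 in Tfh_Vitro and -0.52 ± 0.50 in Tfh_OTII (SD, n = 3). Th1_Vitro was above both Tfh cultures in every library and overlapped Tfh_TILS. The exact permutation test gave p = 0.0244 (adjusted 0.0305). The adjusted exact p lay between 0.0165 and 0.0890 without 1 library, and was above 0.05 without Th1_Vitro replicate 2 or 3, Tfh_Vitro replicate 2 or 3, Tfh_OTII replicate 1 or 2, or Tfh_TILS replicate 3.

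Hlx (chr1, 184727140 to 184732619, minus strand), a homeobox factor that acts with T-bet on Ifng, was near the filter. It had 0.564, 0.339 and 1.07 TPM in Th1_Vitro, 0.660, 0.957 and 2.25 in Tfh_Vitro, 1.58, 0.820 and 0.544 in Tfh_OTII and 1.91, 7.39 and 2.60 in Tfh_TILS. It was highest in Tfh_TILS replicate 2. No scaled comparison passed the test; as deposited it was called lower in Th1_Vitro than in Tfh_TILS (-1.45 ± 0.41, limma adjusted p = 0.0118), and that call was lost without Tfh_TILS replicate 2.

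**Figure D1:**
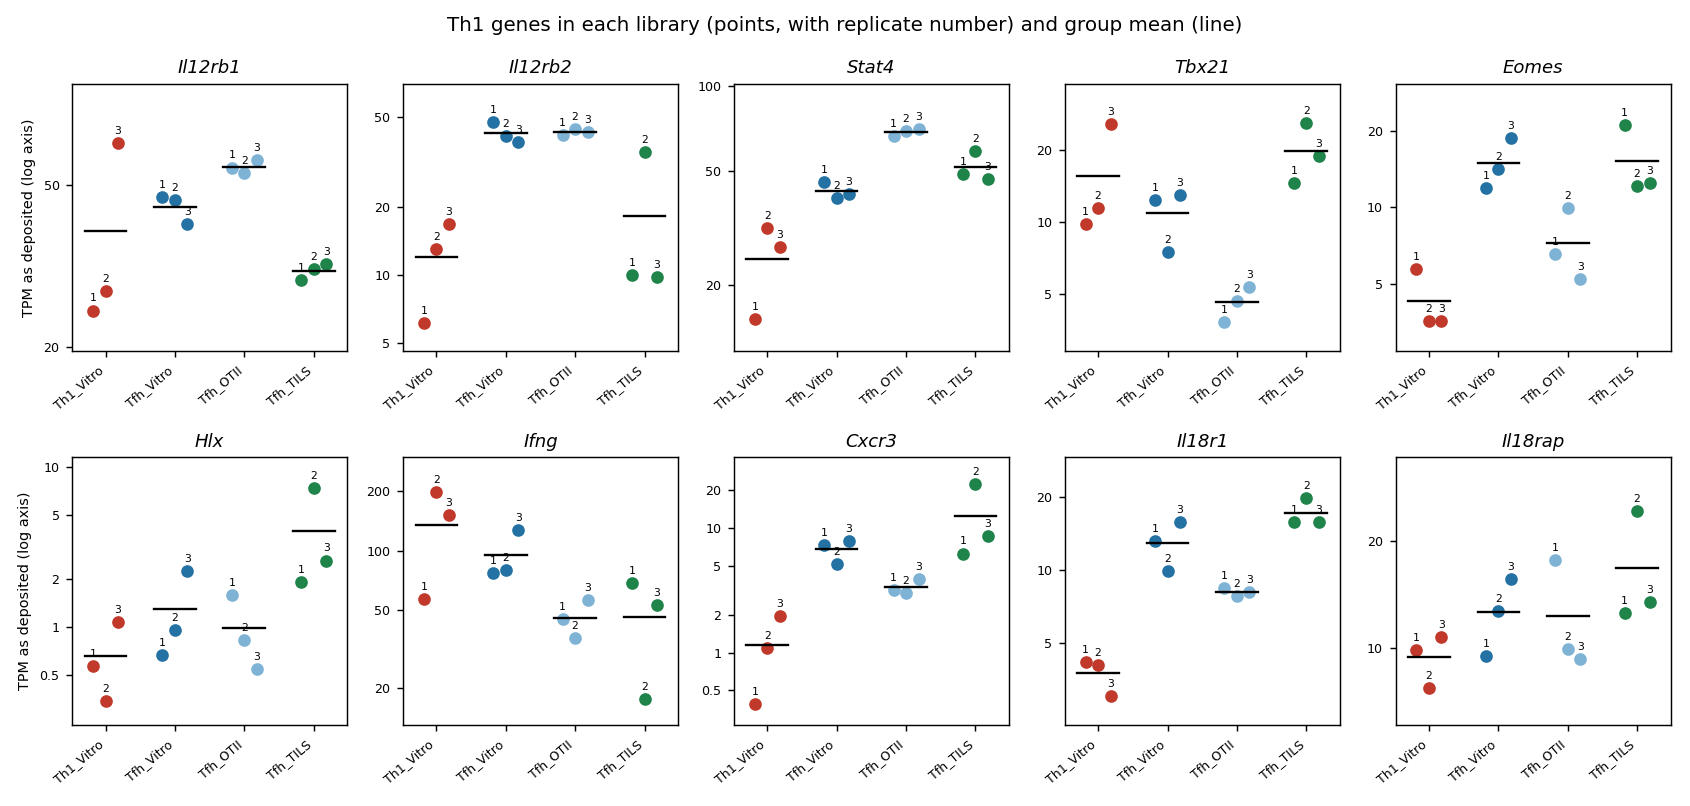
TPM as deposited of the 10 genes (log axis) in each library, with its replicate number, and the mean of each group of 3 as a line. Tbx21 is lowest in the Tfh_OTII libraries (3.82 to 5.39), Cxcr3 lowest in Th1_Vitro (0.390 to 1.97), and replicate 2 of Tfh_TILS is the highest of its group in 7 of the 10 genes.

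Ifng (chr10, 118441046 to 118445892, plus strand), the signature cytokine of Th1 cells, was transcribed in every group. The Th1_Vitro libraries had 56.7, 198 and 151 TPM and those of Tfh_Vitro 76.7, 79.9 and 127. Tfh_OTII had 44.6, 35.8 and 56.1, and Tfh_TILS 68.1, 17.6 and 52.7. Th1_Vitro replicate 1 lay within the range of the other groups as deposited, and Tfh_TILS replicate 2 was the lowest of all. After scaling every Th1_Vitro library (107 to 422) was above every other library (12.4 to 101).

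Ifng rose in Th1_Vitro against Tfh_OTII, by 2.52 ± 0.54 scaled (limma adjusted p = 0.00562, 5.73-fold) and 1.40 ± 0.50 as deposited (adjusted p = 0.0376). It rose against Tfh_TILS too, by 2.74 ± 0.54 scaled (limma adjusted p = 0.00473, 6.67-fold) and 1.56 ± 0.50 as deposited (adjusted p = 0.0212). The scaled calls were kept in all 6 fits without 1 library in both comparisons. The calls as deposited were kept in 2 and 3 of 6, and were lost without Th1_Vitro replicate 2 or 3 in both, without Tfh_OTII replicate 1 or 2 in the first and without Tfh_TILS replicate 2 in the second. Against Tfh_Vitro neither value passed, at 1.43 ± 0.54 scaled (limma adjusted p = 0.0925) and 0.37 ± 0.50 as deposited (adjusted p = 0.542). The 95% interval of the scaled difference ran from 0.27 to 2.59.

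The ratio of Ifng to Il21, the cytokine of Tfh cells, separated Th1_Vitro, Tfh_TILS and the Tfh cultures without scaling between libraries. The log2 ratio of Ifng to Il21 was 4.51 ± 0.36 in Th1_Vitro, 2.41 ± 0.74 in Tfh_TILS, 0.06 ± 0.60 in Tfh_Vitro and -0.63 ± 0.32 in Tfh_OTII (SD, n = 3). Every Th1_Vitro library (4.13 to 4.86) was above every Tfh_TILS library (1.56 to 2.91), and these above both Tfh cultures (-0.98 to 0.75). The exact permutation test gave p = 0.000130, adjusted 0.000487, and at most 0.00146 without any 1 library. IL-21 protein was added to both Tfh cultures. Both genes enter the ratio, and Il21 itself had 75.1 to 97.8 TPM in Tfh_Vitro and 5.28 to 9.25 in Tfh_TILS. Ifng alone did not give this order: every Tfh_TILS library was below every Tfh_Vitro library, and Tfh_TILS overlapped Tfh_OTII.

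As a description with no test, Ifng was also set against Tbx21. The log2 ratio of Ifng to Tbx21 was 2.97 ± 0.89 in Th1_Vitro, 2.99 ± 0.40 in Tfh_Vitro and 3.03 ± 0.29 in Tfh_OTII. In Tfh_TILS it was 1.01 ± 1.39, with the lowest value, -0.53, in replicate 2.

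**Figure D2:**
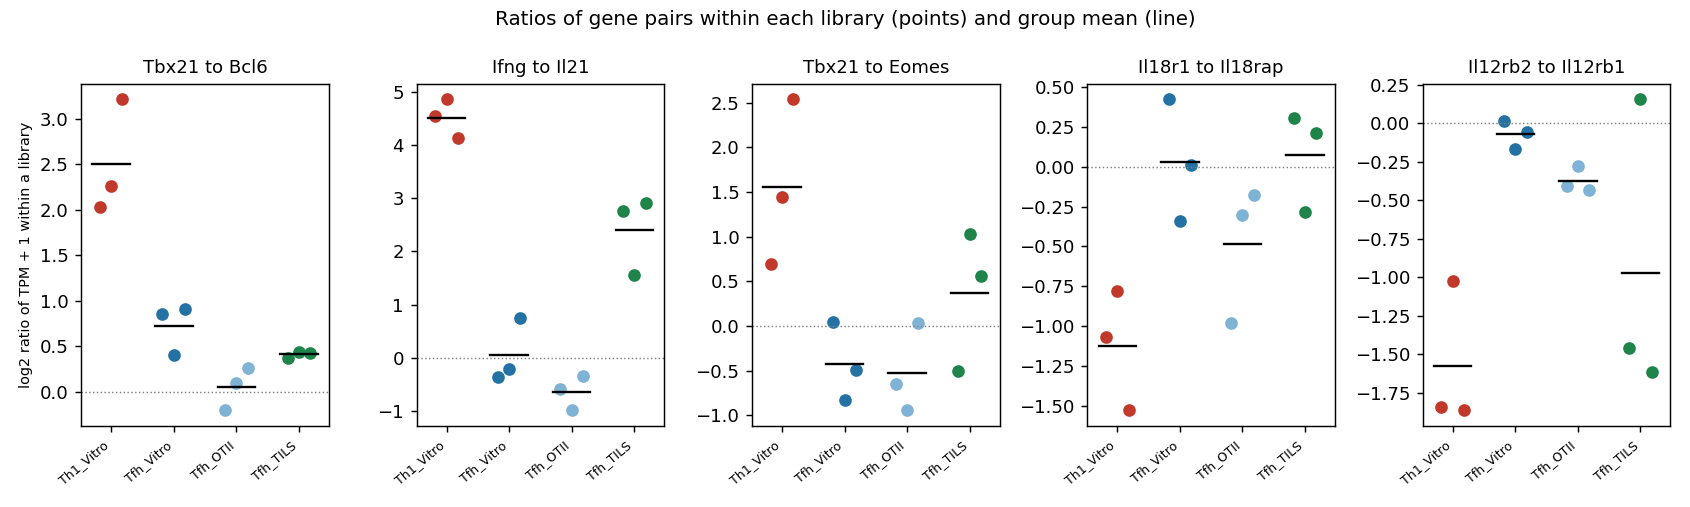
Log2 ratios of 5 gene pairs within each library, with points for libraries and a line for the group mean. TPM as deposited + 1 were used, without scaling between libraries. The Ifng to Il21 ratio places all 3 Th1_Vitro libraries above 4.1 and all 3 Tfh_TILS libraries between the Th1 and Tfh cultures, while the Il12rb2 to Il12rb1 ratio has 1 Tfh_TILS library, replicate 2, far from the other 2.

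Cxcr3 (chrX, 101731535 to 101734269, minus strand), the receptor that guides T cells along IFNγ-induced chemokines and a known T-bet target, was lowest in Th1_Vitro as deposited. Its TPM were 0.390, 1.10 and 1.97 in Th1_Vitro, 7.25, 5.18 and 7.88 in Tfh_Vitro, 3.17, 2.9997 and 3.89 in Tfh_OTII and 6.25, 22.5 and 8.67 in Tfh_TILS. Every Th1_Vitro library was below every library of the 3 other groups as deposited, and replicate 2 of Tfh_TILS was the highest.

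Cxcr3 fell in Th1_Vitro against Tfh_TILS, at -1.75 ± 0.38 scaled (limma adjusted p = 0.00849) and -2.52 ± 0.40 as deposited (adjusted p = 0.000368), and was called in all 6 fits without 1 library both ways. It fell against Tfh_Vitro as well, at -1.26 ± 0.38 scaled (limma adjusted p = 0.0439) and -1.90 ± 0.40 as deposited (adjusted p = 0.00274). That scaled call was kept in only 1 of 6 fits without 1 library, the one without Th1_Vitro replicate 3, and the call as deposited in all 6. Against Tfh_OTII, Th1_Vitro was called lower as deposited (-1.08 ± 0.40, limma adjusted p = 0.0452), kept in 1 of 6 fits. Scaled, that difference was -0.41 ± 0.38 (limma adjusted p = 0.487), and the scaled levels of the 2 groups overlapped. In Tfh_TILS against Tfh_OTII, Cxcr3 rose by 1.34 ± 0.38 (limma adjusted p = 0.0327), and without Tfh_TILS replicate 2 the difference was 0.92 ± 0.35 (adjusted p = 0.122). Without 1 library the scaled call was kept in 1 of 6 fits, that without Tfh_TILS replicate 1, and the call as deposited in 2 of 6. As a description, the log2 ratio of Cxcr3 to Tbx21 was -2.90 ± 0.30 in Th1_Vitro, -0.61 ± 0.13 in Tfh_Vitro, -0.37 ± 0.15 in Tfh_OTII and -0.78 ± 0.51 in Tfh_TILS.

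The IL-18 receptor chains lie side by side on chromosome 1 and are read in the same direction. Il18r1 (chr1, 40465552 to 40500854, plus strand), the ligand-binding chain, had 4.18, 4.08 and 3.05 TPM in Th1_Vitro, 13.1, 9.85 and 15.7 in Tfh_Vitro, 8.45, 7.82 and 8.08 in Tfh_OTII and 15.7, 19.8 and 15.7 in Tfh_TILS. Th1_Vitro was the lowest and Tfh_OTII the next lowest as deposited. Il18rap (chr1, 40515362 to 40551705, plus strand), the accessory chain, had 9.85, 7.71 and 10.7 TPM in Th1_Vitro, 9.50, 12.7 and 15.6 in Tfh_Vitro, 17.6, 9.89 and 9.28 in Tfh_OTII and 12.5, 24.3 and 13.4 in Tfh_TILS. Its groups overlapped as deposited except Th1_Vitro and Tfh_TILS.

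Il18r1 fell in Th1_Vitro against Tfh_TILS, at -0.88 ± 0.24 scaled (limma adjusted p = 0.0254) and -1.92 ± 0.23 as deposited (adjusted p = 6.58e-05). The scaled call was lost without any 1 of the Tfh_TILS libraries or without Th1_Vitro replicate 3, and the call as deposited was kept in all 6 fits. It rose in Tfh_TILS against Tfh_OTII, by 0.90 ± 0.24 scaled (adjusted p = 0.0250, limma) and 0.98 ± 0.23 as deposited (adjusted p = 0.0119). That scaled call was lost without any 1 library, at adjusted p of 0.0526 to 0.0786, whereas the call as deposited was kept in all 6. Il18rap passed 1 test, higher in Th1_Vitro than in Tfh_OTII by 0.74 ± 0.25 scaled (limma adjusted p = 0.0490), with the opposite sign as deposited (-0.31 ± 0.31, adjusted p = 0.433).

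The log2 ratio of Il18r1 to Il18rap was -1.12 ± 0.38 in Th1_Vitro, 0.03 ± 0.38 in Tfh_Vitro, -0.49 ± 0.43 in Tfh_OTII and 0.08 ± 0.32 in Tfh_TILS (SD, n = 3). Th1_Vitro was below Tfh_Vitro and Tfh_TILS in every library and overlapped Tfh_OTII. The exact permutation test gave p = 0.0188 (adjusted 0.0305), with adjusted exact p of 0.0218 to 0.0890 without 1 library. It was above 0.05 without Th1_Vitro replicate 1 or 3, Tfh_Vitro replicate 3 or Tfh_TILS replicate 3.

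In Th1_Vitro against Tfh_Vitro, 1 was called higher (Tbx21) and 1 lower (Cxcr3) after scaling, where 5.42% of all 23308 tested genes were called higher and 9.27% lower. As deposited 0 were called higher and 5 lower, beside 0.511% and 41.1% of all genes. Against Tfh_OTII, 3 were called higher (Ifng, Il18rap, Tbx21) and 0 lower, beside 8.2% and 12.5% of all genes. As deposited 2 were higher (Ifng, Tbx21) and 4 lower (Cxcr3, Il12rb2, Il18r1, Stat4), beside 1.16% and 42.7%. Against Tfh_TILS, 2 were called higher (Ifng, Il12rb1) and 2 lower (Cxcr3, Il18r1), beside 7.64% and 10.7%. As deposited 1 was higher (Ifng) and 5 lower (Cxcr3, Eomes, Hlx, Il18r1, Stat4), beside 0.601% and 49.3%. The median scaled log2 fold change of the 10 genes was 0.12, 0.30 and 0.23 in these 3 comparisons, and that of all tested genes -0.15, -0.12 and -0.16. As deposited the medians were -0.63, -0.64 and -0.91 for the 10 genes and -0.78, -0.79 and -0.87 for all.

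In Tfh_TILS against Tfh_OTII, 3 genes were called higher (Cxcr3, Il18r1, Tbx21) and 2 lower (Il12rb1, Il12rb2), where 7.14% of all genes were called higher and 8.41% lower. As deposited 4 were higher (Eomes besides these 3) and 1 lower (Il12rb2), beside 7.97% and 7.29%. In Tfh_TILS against Tfh_Vitro limma called 0 of the 10 genes, beside 1.15% of all genes higher and 1.33% lower; 5 of the 10 had an unadjusted p under 0.05 (Hlx, Ifng, Il12rb1, Il12rb2, Tbx21), as did 13.8% of all genes. In Tfh_OTII against Tfh_Vitro limma also called 0, beside 0.691% higher and 1.22% lower; 5 had an unadjusted p under 0.05 (Cxcr3, Eomes, Il18r1, Stat4, Tbx21), as did 12.1% of all genes. These comparisons share groups, so their values are not independent of each other.

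**Figure D3:**
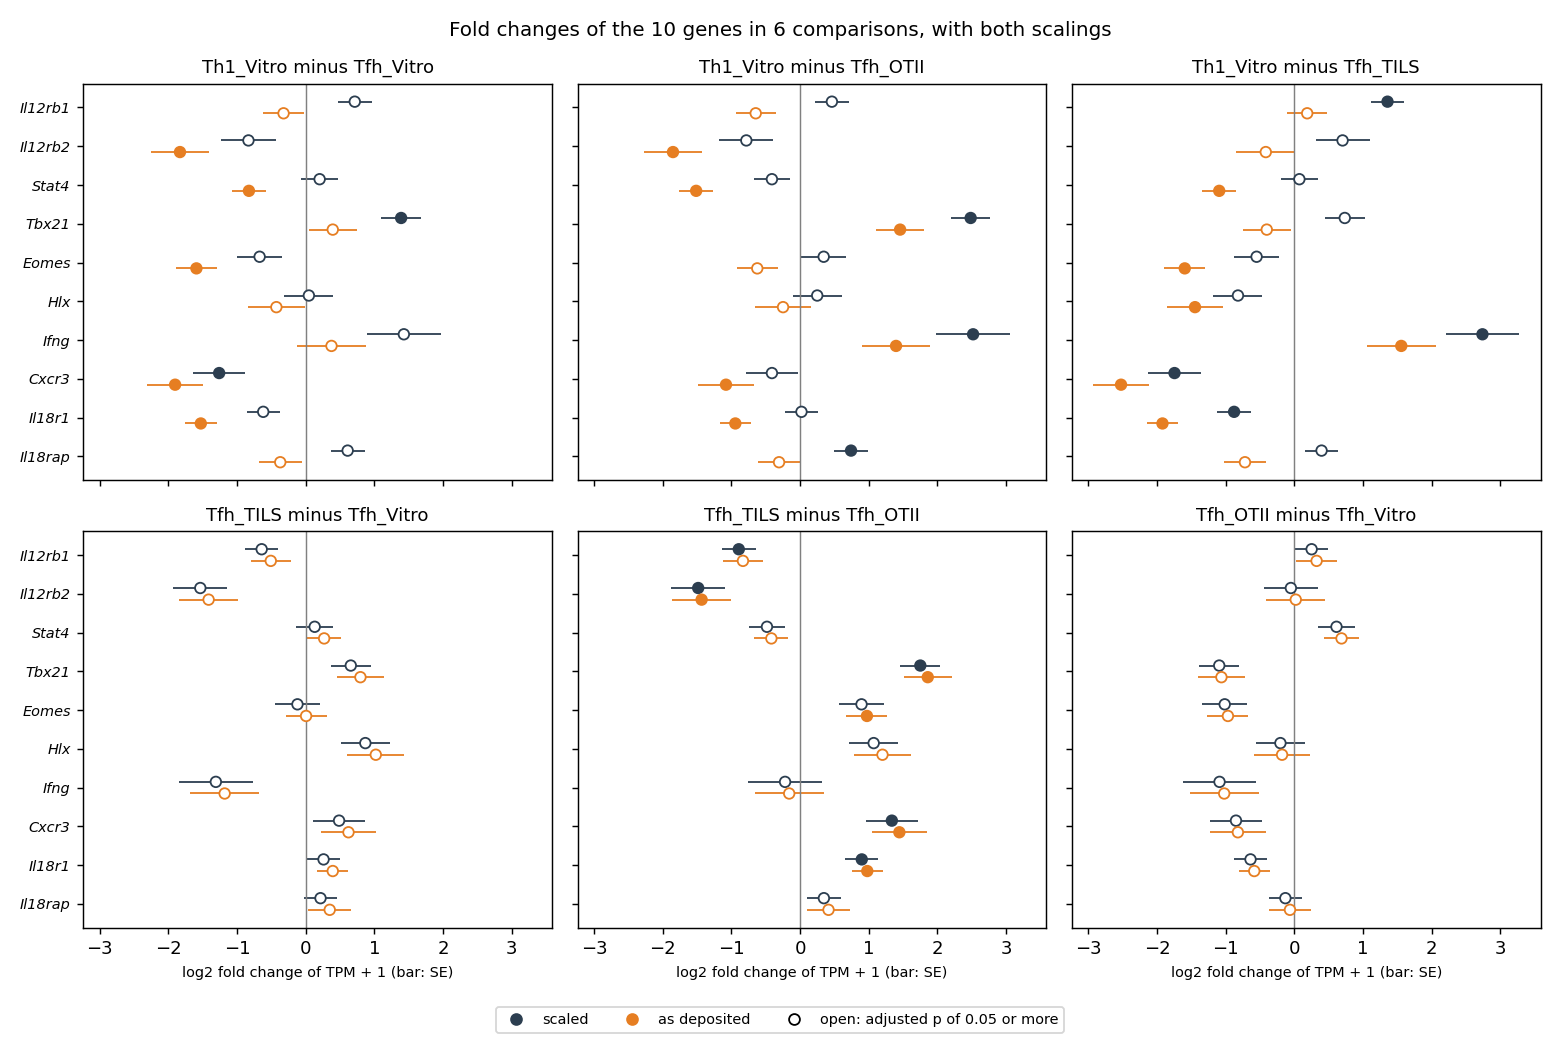
Log2 fold changes (first group minus second, with SE) of the 10 genes in the 6 comparisons, scaled in dark and as deposited in orange, filled where the adjusted p was under 0.05. In the upper row, all with Th1_Vitro, values as deposited lie to the left of the scaled ones for every gene; in the lower row both lie close together.

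Tfh_TILS carried myeloid transcripts above the other groups as deposited, most in replicate 2. The summed TPM of 12 macrophage and dendritic cell markers was 183, 1147 and 368 in replicates 1, 2 and 3 and 32.3 to 113 in the 9 other libraries, with Lyz2, a lysozyme of myeloid cells, at 34.1, 309 and 82.0 TPM. After scaling, the sums were 161 to 811 in Tfh_TILS and 92.7 to 165 in Th1_Vitro, which overlapped. All 12 were above 0 in at least 1 library of each group, and 10 reached 1 TPM in every Tfh_TILS library. The sum of 10 natural killer (NK) cell markers was 92.0, 427 and 117 TPM, of which Fcer1g, shared with myeloid cells, had 22.6, 244 and 49.3 TPM. Ncr1, the receptor that defines NK cells, was at 0.673, 1.34 and 0.840 TPM, against up to 0.955 TPM in Tfh_Vitro. The other NK markers are not given singly. All 10 were above 0 in at least 1 library of each group, and 3 reached 1 TPM in every Tfh_TILS library. As deposited the 10 NK markers summed to 18.5 to 85.9 TPM in the 9 other libraries. Scaled, their sums were 80.7 to 302 in Tfh_TILS and 34.9 to 85.8 in Th1_Vitro, which overlapped. As deposited, replicate 2, highest in both sums, was also highest of its group in Il12rb2, Cxcr3, Hlx, Il18rap, Tbx21, Stat4 and Il18r1, and lowest in Ifng and Eomes. After scaling Stat4 was highest in replicate 1 (42.8 against 41.8 in replicate 2). Replicate 2 also had the highest T cell marker sum (2904 TPM against 1661 and 1752) and Tfh marker sum (612 against 407 and 389). Its share of satellite-like models was the lowest of the group, 3.48% against 19.0% and 14.8%. The part of other cells in these results was not tested.

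Of 18 genes that carry or modulate IL-12, IL-23, IL-27 and IL-18 signals, 2 were called lower in Th1_Vitro against both Tfh cultures with both scalings, beside 9.27% and 12.5% of all genes scaled and 41.1% and 42.7% as deposited. They were Jak2, a kinase bound to the IL-12 receptor β2 chain (30.7 ± 6.72 TPM against 118 ± 9.28 in Tfh_Vitro and 122 ± 7.63 in Tfh_OTII), and Il23r (0.192 ± 0.130 against 1.89 ± 0.401 and 1.89 ± 0.661). Scaled, Jak2 lost its call without Th1_Vitro replicate 1 in both comparisons, without Tfh_Vitro replicate 1 or 2 and without Tfh_OTII replicate 2 or 3. Il23r kept it in 1 of 6 cases in each, without Th1_Vitro replicate 2. As deposited both genes kept their calls in 6 of 6 cases. In the scaled fit, 3 were higher and 2 lower against Tfh_Vitro, beside 5.42% and 9.27% of all genes, with a list median of 0.35 beside -0.15. Against Tfh_OTII 6 were higher and 2 lower, beside 8.2% and 12.5%, with a list median of 0.38 beside -0.12. As deposited 0 were higher and 6 lower against Tfh_Vitro, and 1 higher and 7 lower against Tfh_OTII. Gadd45b, which sustains p38 signalling downstream of IL-12 and IL-18, rose in Th1_Vitro against Tfh_OTII (42.7 ± 17.9 against 15.4 ± 1.07 TPM, 2.43 ± 0.33 scaled and 1.33 as deposited on the log2 scale). It also rose in Tfh_TILS against Tfh_OTII (94.3 ± 64.5 TPM, 2.25 ± 0.33), where 7.14% of all genes were called higher. Il18bp, the soluble IL-18 inhibitor, and Traf6, an adaptor of IL-18 signals, were the other 2 of 3 genes called. Gadd45b kept that call in 6 of 6 cases; Il18bp lost it without Tfh_TILS replicate 2 or Tfh_OTII replicate 2 or 3, and Traf6 kept it only without Tfh_TILS replicate 2. In Tfh_TILS against Tfh_Vitro Gadd45b was the 1 gene of the list called (1.51 ± 0.33), beside 1.15% of all genes higher. It kept that call only without Tfh_TILS replicate 1.

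Among the genes of the IFNγ receptor and its feedback, Irf8, an interferon-induced transcription factor, had 92.4 ± 7.55 TPM in Tfh_TILS, 56.7 ± 37.2 in Th1_Vitro, 31.1 ± 7.85 in Tfh_Vitro and 24.6 ± 3.73 in Tfh_OTII. It rose in Tfh_TILS against Tfh_Vitro (1.43 ± 0.28, limma adjusted p = 0.0197), but kept that call only without Tfh_TILS replicate 1 or 2, in 2 of 6 cases of leaving out 1 library. Against Tfh_OTII it rose by 1.80 ± 0.28 (adjusted p = 0.00129, limma), in 6 of 6 such cases. Irf8 also rose in Th1_Vitro against Tfh_OTII, by 2.11 ± 0.28 scaled (limma adjusted p = 0.000261) and 1.00 as deposited (limma adjusted p = 0.0351). Irf1, a related factor, was higher in Tfh_TILS than in Tfh_OTII by 0.92 ± 0.28 after scaling (limma adjusted p = 0.0409). It missed the threshold with TPM as deposited (limma adjusted p = 0.0625). Irf1 lost its scaled call in 4 of 6 cases, without Tfh_TILS replicate 2 or 3 or Tfh_OTII replicate 1 or 2. Jak1 and Socs3, a kinase of the IFNγ receptor and a feedback inhibitor induced by IL-6 and IL-21, were called lower in Th1_Vitro against both Tfh cultures; Socs3 had 6.16 ± 4.75 TPM there and 34.2 ± 4.17 in Tfh_Vitro. As deposited both kept these calls in 6 of 6 cases. Scaled, they kept the call against Tfh_Vitro in 1 of 6, without Th1_Vitro replicate 3. Against Tfh_OTII, Socs3 also kept it only without that replicate, and Jak1 lost it without Tfh_OTII replicate 3. Ifngr1, a chain of the receptor, had 8.99 ± 1.73 TPM in Th1_Vitro, 74.2 ± 7.75 in Tfh_OTII and 186 ± 176 in Tfh_TILS. It fell in Th1_Vitro against Tfh_OTII, at -1.86 ± 0.46 scaled (limma adjusted p = 0.0121) and -2.92 as deposited. Against Tfh_TILS it fell too, at -2.66 ± 0.46 scaled (limma adjusted p = 0.00254) and -3.79 as deposited. Without Tfh_TILS replicate 2 the latter scaled difference was -1.98 ± 0.29. In Th1_Vitro against Tfh_Vitro, Ifngr1 was not called after scaling.

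Of 15 tested transcription factors and enzymes that work beside T-bet, 4 were called lower and 0 higher with both scalings in Th1_Vitro against Tfh_Vitro. Of all genes, 9.27% were called lower scaled and 41.1% as deposited. Without 1 library the scaled count of lower genes was 1 to 4, with 1 without Tfh_Vitro replicate 1 or 3, 2 without Tfh_Vitro replicate 2 or Th1_Vitro replicate 1 or 3, and 4 without Th1_Vitro replicate 2. Prdm1, which encodes BLIMP-1, had 0.833 ± 0.109 TPM in Th1_Vitro, 8.12 ± 2.96 in Tfh_Vitro, 1.46 ± 0.351 in Tfh_OTII and 31.7 ± 24.5 in Tfh_TILS. Id2, an inhibitor of E proteins, had 14.2 ± 5.03 TPM in Th1_Vitro and 86.7 ± 9.20 in Tfh_Vitro. Scaled, Prdm1 kept its call in 3 of 6 cases and Id2 in 1 of 6; as deposited both kept it in 6 of 6. Irf4, induced by T cell receptor signals, was higher in Th1_Vitro scaled (1.41 ± 0.32) and not called as deposited (0.35). In Tfh_TILS against Tfh_OTII, 3 of 15 rose, beside 7.14% of all genes called higher. They were Prdm1 (3.28 ± 0.42), Zeb2 (1.81 ± 0.34), which acts with T-bet in terminal effector cells, and Runx1 (1.02 ± 0.28). Prdm1 and Zeb2 kept their calls in 6 of 6 cases. Runx1 kept its call in 2 of 6, losing it without Tfh_TILS replicate 2 or 3 or Tfh_OTII replicate 1 or 2.

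The 25 tested effector and homing genes of Th1 cells included more calls in Tfh_TILS than in Th1_Vitro against Tfh_OTII, a difference that was not tested. In Tfh_TILS against Tfh_OTII, 9 were called higher and 0 lower, beside 7.14% and 8.41% of all genes. The list median was 0.88 beside 0.02 for all genes, and without Tfh_TILS replicate 2 the count was 8 and 0. In Th1_Vitro against Tfh_OTII, 5 were higher and 1 lower scaled, beside 8.2% and 12.5% of all genes. As deposited 1 was higher and 4 lower there, beside 1.16% and 42.7%. In Tfh_TILS against Tfh_Vitro 2 were higher, Ly6c2 (3.46 ± 0.75) and the chemokine Ccl5 (2.52 ± 0.46), beside 1.15% of all genes. Both were called with and without Tfh_TILS replicate 2. The count against Tfh_Vitro was 0 without Tfh_Vitro replicate 1 or 2, and 1 without Tfh_Vitro replicate 3 or Tfh_TILS replicate 3. It was 6, with 1 lower, without Tfh_TILS replicate 1. Ccl5 had 30.4, 200 and 51.8 TPM in Tfh_TILS and 3.97 to 10.5 TPM in the other libraries. In Th1_Vitro against Tfh_Vitro 0 were called with both scalings. Furin and Lta were higher scaled (1.49 ± 0.35 and 1.32 ± 0.37), beside 5.42% of all genes. Furin lost this call without Tfh_Vitro replicate 2, and Lta kept it only without Th1_Vitro replicate 1. Klrg1, Havcr2 and Ccl5 were among the 6 genes that fell in Th1_Vitro against Tfh_TILS both ways. Of all genes, 10.7% were called lower scaled and 49.3% as deposited. Klrg1 lost its scaled call without Th1_Vitro replicate 1. Gzmb, the cytotoxic protease granzyme B, was called lower in Th1_Vitro than in Tfh_OTII (44.9 ± 26.9 against 539 ± 53.9 TPM) with both scalings. That call was kept in 6 of 6 cases as deposited and in 3 of 6 scaled, lost without Tfh_OTII replicate 2 or 3 or Th1_Vitro replicate 1. As deposited, replicate 2 of Tfh_TILS was the highest of its group in 20 of the 26 genes.

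**Figure D4:**
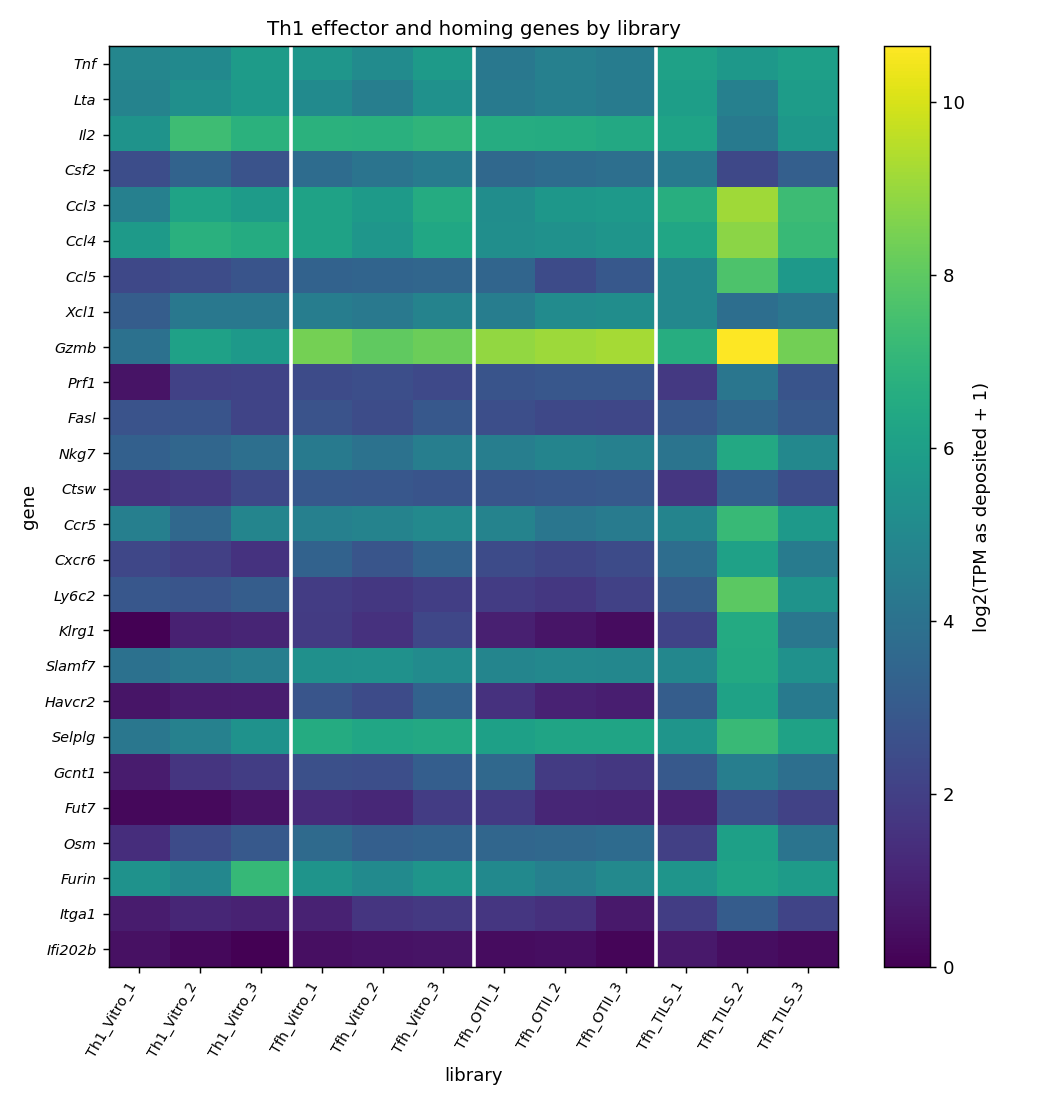
Log2(TPM as deposited + 1) of 26 Th1 effector and homing genes (rows) in the 12 libraries (columns, groups divided by white lines). Tfh_TILS replicate 2 is brightest in Gzmb, Ccl3, Ccl4, Ccl5, Ly6c2 and Klrg1, while Il2 and Csf2 are dimmest there within their group.

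Of 13 tested regulators of other helper fates, 9 were called lower and 0 higher with both scalings in Th1_Vitro against Tfh_Vitro, beside 9.27% of all genes lower scaled and 41.1% as deposited. Without 1 library the scaled count of lower genes was 6 to 9, lowest without Tfh_Vitro replicate 1. Foxp3, the factor of regulatory T cells, had 0.900 ± 0.544 TPM in Th1_Vitro, 24.4 ± 10.1 in Tfh_Vitro, 1.97 ± 0.273 in Tfh_OTII and 91.7 ± 48.6 in Tfh_TILS. Ikzf2, which encodes Helios, had 3.75 ± 1.89, 47.1 ± 19.3, 9.77 ± 0.512 and 197 ± 105 TPM in the same order. Maf, which promotes IL-21, had 1.48 ± 0.0611, 19.4 ± 6.90, 3.09 ± 0.784 and 99.2 ± 78.5 TPM. All 3 rose in Tfh_TILS against Tfh_OTII and fell in Tfh_OTII against Tfh_Vitro, where they were the 3 genes of the list called, beside 1.22% of all genes lower. In the second of these comparisons Ikzf2 and Maf lost the scaled call without Tfh_Vitro replicate 3, and Maf also without Tfh_OTII replicate 3. They were called higher in Tfh_TILS against Tfh_Vitro too, but all 3 lost that call without Tfh_Vitro replicate 1 or 2. Foxp3 and Ikzf2 also lost it without Tfh_TILS replicate 2, and Foxp3 without Tfh_TILS replicate 3.

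Among the neighbours of the 10 genes on their chromosomes, Il1r2, which encodes the decoy receptor of IL-1 and lies in the cluster that holds Il18r1 and Il18rap, rose in Tfh_TILS. As deposited it had 46.2, 248 and 74.5 TPM there and 13.9 to 23.6 in Tfh_Vitro. Tfh_OTII had 4.29 to 9.93 and Th1_Vitro 1.55 to 2.66, and no groups overlapped in that order. After scaling, Il1r2 was not called in the lowest step, Th1_Vitro against Tfh_OTII. Il1r2 rose in Tfh_TILS against Tfh_Vitro by 2.15 ± 0.44 (limma adjusted p = 0.0245), but kept that call only without Tfh_TILS replicate 1 or 2. Against Tfh_OTII it kept its call in 6 of 6 cases. In Th1_Vitro against Tfh_Vitro 3 of 18 tested neighbours were called lower with both scalings, beside 9.27% of all genes scaled and 41.1% as deposited. They were Il1r2, Mdm1 beside Ifng, and Il23r beside Il12rb2. Scaled, Il1r2 lost this call without Tfh_Vitro replicate 3, Mdm1 kept it in 2 of 6 cases, without Th1_Vitro replicate 2 or 3, and Il23r in 1 of 6.

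The genes whose scaled levels most resembled those of 4 of the genes over the 12 libraries were found among 10460 named genes by the root mean square difference of centred log2 values. For Tbx21 they were Irf8, Tnf and Ftl1, at 0.38 each, beside a root mean square of 0.96 for Tbx21 itself. For Ifng they were Dapl1, Il2 and Tmem147 (0.52, 0.54 and 0.55, beside 1.26). For Il12rb2 they were Tmsb10, Eno1 and Pgm2 (0.28, 0.31 and 0.31, beside 0.78), and for Cxcr3 Arhgap25, Nfil3 and H60b (0.27, 0.28 and 0.28, beside 0.80). Likeness so measured follows the scaling and the libraries and has no test.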

How the data were processed

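The authors deposited TPM, a length-corrected abundance, with 1 value for each gene symbol in each library. These values were made with kallisto on mm10, per the submitters' processing notes; its version and the transcript annotation are not given in the sources used here. Per the labels' protocols, rRNA-depleted total RNA was made into strand-specific libraries from 300000 cells, read as pairs of 75 bases. The files used hold no counts, so depth is unknown and no counting interval is given.

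TPM were scaled by median-of-ratios size factors over 15572 genes. Log2(scaled TPM + 1) of the 23308 genes whose mean reached 1 TPM in any group entered a model with 1 mean per group and an intensity trend (limma 3.58.1, R 4.3.3). Calls are Benjamini-Hochberg adjusted p under 0.05 over all tested genes. Fold changes understate changes of low genes. The fit was tested on simulated data. Ratios are log2 differences of TPM + 1 within a library, tested by exact permutation. The added 1 weakens ratios with a gene near 1 TPM, such as Bcl6 and Il21 in Th1_Vitro, so these depend in part on the library's scale. Percentiles are among protein-coding genes. Positions are from GENCODE M21 (GRCm38), which held 34769 of the 35492 symbols.

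The members, the gene lists and the tests were chosen with earlier results of these data known. Named genes were all 10 members, up to 3 called genes per list, direction and comparison, and the 3 most alike for 4 members. Cd4, Lyz2, Fcer1g and Ncr1 were named after their values were seen. Alternatives were other scalings, a pseudocount of 0.1, other filters, fewer groups, a replicate block and each library left out; for the lists and for values as deposited, leaving out libraries was chosen after seeing the data. Results of 1 listed gene are not reported here.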

Additional observations from a re-analysis of the deposited data

How the results depend on the processing

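With TPM as deposited, members called were 5 in Th1_Vitro against Tfh_Vitro (2 in the main analysis) and 6 against Tfh_OTII (3). Of all genes, 0.511% were higher and 41.1% lower in the first, and 1.16% and 42.7% in the second. With size factors from the Cd3 chains the members called were 5, 7, 2, 1 in Th1_Vitro against Tfh_Vitro, Th1_Vitro against Tfh_OTII, Tfh_TILS against Tfh_Vitro (0) and Tfh_OTII against Tfh_Vitro (0). Of all 23308 genes, this setting called 6405, 8294, 644 and 57 higher in that order. It called 997, 1038, 137 and 117 lower. Without a filter 1 member was called in Th1_Vitro against Tfh_Vitro, beside 955 higher and 1901 lower of all 34778 genes. With a filter at 5 TPM 1 member was called in Tfh_TILS against Tfh_Vitro, beside 351 higher and 417 lower of 12852 genes. With only the groups compared the members called were 1 in Th1_Vitro against Tfh_Vitro, 2 against Tfh_TILS (4) and 3 in Tfh_OTII against Tfh_Vitro. All genes called higher and lower were 800 and 1804 of 20290, 433 and 918 of 20914, and 598 and 691 of 21669. With satellite-like models and Lars2 removed 1 member was called in Tfh_OTII against Tfh_Vitro, beside 173 higher and 192 lower of 23295 genes. Without 1 library the counts of members were 1 to 3, 2 to 3, 3 to 5, 0 to 1, 1 to 4 (main 5, Tfh_TILS against Tfh_OTII) and 0 to 0 for Th1_Vitro against Tfh_Vitro, Tfh_OTII and Tfh_TILS, Tfh_TILS against Tfh_Vitro and Tfh_OTII, and Tfh_OTII against Tfh_Vitro. Of all 22698 to 24238 genes, those called higher were 465 to 1466, 1120 to 2105, 1064 to 2025, 61 to 519, 802 to 1449 and 58 to 117. Those called lower were 1117 to 2192, 2089 to 3067, 1674 to 2472, 51 to 308, 1016 to 1772 and 54 to 279. A sign change is named where a call or both standard errors were passed. As deposited these were, against Tfh_Vitro, Il12rb1 (-0.32), Stat4 (-0.83) and Il18rap (-0.37); against Tfh_OTII, Il12rb1 (-0.65), Il18r1 (-0.94), Il18rap (-0.31) and Eomes (-0.62); and against Tfh_TILS, Tbx21 (-0.40), Stat4 (-1.10) and Il18rap (-0.72), all of Th1_Vitro. With Cd3 factors they were Il12rb2 (0.30) and Stat4 (0.69) against Tfh_OTII. The adjusted exact p of the ratios without 1 library was 0.000325 to 0.00211 (Tbx21 to Bcl6), 0.0165 to 0.0890 (Tbx21 to Eomes), 0.00433 to 0.128 (Il12rb2 to Il12rb1), 0.0218 to 0.0890 (Il18r1 to Il18rap) and 0.000325 to 0.00146 (Ifng to Il21). No pairing by replicate number was seen in the residuals. Those of same-numbered libraries correlated at -0.48 to 0.30 (median -0.05, 18 pairs), over 0.1 in 2 of them. Differently numbered libraries had -0.26 to 0.44 (median 0.03, 36 pairs), over 0.1 in 9. Whether same-numbered libraries share a source is not known. With the replicate block the members called were 2, 2, 4, 0, 5 and 0 in the same order. Of all 23308 genes, 1012, 1685, 1454, 204, 1462 and 115 were then higher and 1864, 2551, 2119, 207, 1621 and 241 lower. The block changed 1 call of 60, Il18rap in Th1_Vitro against Tfh_OTII (limma adjusted p = 0.0788). The causes of these changes were not tested, apart from the fixed sum of TPM that sets the values as deposited. Depth is unknown, and levels near 1 TPM, as for Hlx and for Cxcr3 in Th1_Vitro, have an unknown counting error.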
